A study of Mus musculus with 6 samples.

Results

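The genes described here are 39 genes of DNA replication and S phase, chosen by name from the roles of their proteins. These genes and the other gene lists below were chosen with earlier results of these data known. On the arrays the 39 genes were every non-control probe with one of their names in the scanner files. This gave 47 of 55681 probes, with all 39 genes present among 36499 named genes. The cells were primary myoblasts, the dividing precursor cells of skeletal muscle, sorted by flow cytometry from muscle of male C57BL/6 mice aged 3 months and grown in DMEM with 20% fetal bovine serum. One group was treated for 4 days with TGFb (transforming growth factor beta, a secreted signalling protein) and the other was left untreated, with 3 samples in each. Total RNA of each sample was labelled with Cy3 and hybridised to a 1-colour Agilent mouse array. The labels describe the 3 samples of a group as independent experiments, give no TGFb dose, and do not say how many mice were used or whether cells of several mice were pooled. The names of the scanner files number untreated replicates 1 and 2 alike, so whether these came from separate cultures is not certain, and with a shared culture the p-values would be too small.

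DNA is copied once in each cell cycle. In G1, the origin recognition complex, Cdc6 and Cdt1 load the ring-shaped MCM helicase onto DNA, and in S phase Cdc45 and the GINS complex turn it into a moving helicase that polymerases follow. Most of these genes are transcribed in late G1 by E2F factors, which the retinoblastoma protein holds back until cyclin D and cyclin E kinases phosphorylate it. Myoblasts leave the cell cycle when they differentiate into myotubes, and TGFb is known both to hold many cell types in G1 and to keep myoblasts from differentiating.

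Promoter sequence is shown for 4 members that the results below turn on. E2f2 and Tk1 were lower after TGFb on both scan days. Mcm5 and Mcm6, helicase subunits, had differences of opposite sign that did not pass the test on the scanner values. Each window runs from 250 bases before to 50 bases after the transcription start, 5′ to 3′ along the gene, from RefSeq on build GRCm38.p6. Capitals mark matches on either strand to 4 words of the E2F consensus, TTTCCCGC, TTTCGCGC, TTTGGCGC and TTTGCCGC.
E2f2, chr4:136172024-136172323, plus strand, the first of 2 listed starts: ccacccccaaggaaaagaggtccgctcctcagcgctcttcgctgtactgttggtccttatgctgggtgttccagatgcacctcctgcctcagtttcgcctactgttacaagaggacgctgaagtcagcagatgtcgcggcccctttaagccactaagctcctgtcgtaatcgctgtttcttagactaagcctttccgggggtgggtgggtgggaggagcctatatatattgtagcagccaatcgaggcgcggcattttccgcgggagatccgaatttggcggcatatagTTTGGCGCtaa
Mcm5, chr8:75109259-75109558, plus strand: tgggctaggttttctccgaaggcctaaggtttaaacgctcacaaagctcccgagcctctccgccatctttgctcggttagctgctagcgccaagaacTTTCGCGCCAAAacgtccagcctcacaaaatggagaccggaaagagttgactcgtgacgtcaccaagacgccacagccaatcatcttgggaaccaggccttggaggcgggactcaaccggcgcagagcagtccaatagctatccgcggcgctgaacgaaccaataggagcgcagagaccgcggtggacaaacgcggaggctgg
Mcm6, chr1:128359656-128359955, minus strand: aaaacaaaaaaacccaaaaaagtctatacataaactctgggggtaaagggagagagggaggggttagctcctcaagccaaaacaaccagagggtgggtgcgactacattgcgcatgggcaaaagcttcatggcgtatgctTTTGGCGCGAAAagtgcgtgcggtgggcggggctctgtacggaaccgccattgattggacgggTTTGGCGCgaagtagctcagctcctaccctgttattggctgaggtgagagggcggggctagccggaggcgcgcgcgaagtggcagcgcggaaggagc
Tk1, chr11:117825965-117826264, minus strand: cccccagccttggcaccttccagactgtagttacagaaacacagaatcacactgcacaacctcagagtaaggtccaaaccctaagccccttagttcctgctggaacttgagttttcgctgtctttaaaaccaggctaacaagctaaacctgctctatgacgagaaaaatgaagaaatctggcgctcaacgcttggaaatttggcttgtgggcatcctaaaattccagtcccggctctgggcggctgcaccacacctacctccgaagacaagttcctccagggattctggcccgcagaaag
The E2f2 window held 1 word, at base 39 after the start. The Mcm5 window held 2 words that overlap each other, the Mcm6 window held 3, of which 2 overlap, and the Tk1 window held none. Of the 32 members with a promoter in the RefSeq table, 13 held at least 1 of the words (40.6%), against 704 of 27025 genes (2.6%). Genes with several listed starts were counted once, with all their windows. A CCAAT box, the word CCAAT on either strand, stood in at least 1 listed window of 20 of the 32 members (62.5%), against 41.1% of all genes. Members with an E2F word had a median log2 difference of -0.19 between TGFb and untreated arrays with scan day in the model, and the 19 without had -0.34. No test was made of that difference, and a match is a description of the sequence only.

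Of the 39 genes, 38 were tested, because their brightest probe passed the scanner's test against background on 3 or more of the 6 arrays. Ccne2, which encodes cyclin E2, was not well above background on any array with its only probe, so no level or difference is given for it. No probe of a member was saturated. Levels below are log2 intensities relative to the array's 75th percentile, and differences are TGFb minus untreated on that log2 scale, from limma, with p-values adjusted over 21960 genes. The number of arrays, 3 in each group, limits the precision. The scanner headers give 2 scan days: TGFb 1, untreated 1 and untreated 2 were scanned on day 1, and TGFb 2, TGFb 3 and untreated 3 on day 2. The first principal component held 72.4% of the variance over all genes and separated the scan days, while the second, with 16.3%, separated the treatments. TGFb 1 and untreated 2 shared a slide, as did TGFb 2 and untreated 3, and the other 2 arrays were on slides of their own. Each result is therefore given without and with scan day as a term, and with slide as a block where that changes a call. Scan day names only when the arrays were read, and what else differed between the days was not tested.

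The array labels could be checked against markers. Of 8 myoblast markers, 7 were well above background on all 6 arrays, among them Pax7 and Myod1, and Myf5 was so on 1 array. Differentiation genes such as Myog, Ckm and Acta1 were also measured on all 6 arrays. Mean log2 levels on untreated arrays were 7.79 for Myog, 8.34 for Acta1, 8.52 for Myh3 and 1.97 for Ckm. Those of Pax7 and Myod1 were 2.24 and 6.24, on probes that differ. RNA of differentiation genes was thus high in these cultures, and how far the cells had differentiated was not tested. The summed linear level of the 6 myotube markers was 579 to 1000 on TGFb arrays and 1040 to 1390 on untreated arrays, with no overlap. With scan day in the model 3 of the 6 fell, where 5.54% of all genes were called lower. Without scan day 0 of the 6 fell. Summed myoblast markers ranged from 374 to 675 on TGFb arrays and from 472 to 780 on untreated arrays. Chrna1, at 7.65 to 8.48 on the log2 scale, was the brightest in that sum on each array. Pax7, at 2.06 to 2.51, added little to it. With scan day 1 of the 7 tested fell, the intermediate filament gene Des, and without it 0 fell. Markers of other cell types were detected as well. Pdgfra, Ly6a and Cd34 (fibroblast), Pecam1 and Kdr (endothelial), and Itgam and Csf1r (leukocyte) were well above background on all 6 arrays. Tcf21 (fibroblast) and Cdh5 (endothelial) were so on 3 arrays, and the leukocyte markers Adgre1 on 2 and Ptprc on 1. Dpt and Lum (fibroblast), Tek (endothelial) and Cd68 (macrophage) were not well above background on any array. The summed level was 2.72 to 5.13 on TGFb arrays and 1.95 to 3.34 on untreated arrays for 4 fibroblast markers. It was 0.417 to 2.93 against 0.317 to 3.16 for 3 endothelial markers, and 16.3 to 118 against 16.1 to 66.7 for 2 leukocyte markers. Each sum was mostly 1 gene, so it is not a level shared by its markers. These were Cd34, at 0.61 to 2.29 on the log2 scale, Kdr, at -1.99 to 1.61, and Itgam, at 3.95 to 6.87. Kdr and Itgam differed between scan days by -3.20 and 2.43 (day 2 minus day 1). The part of these markers in the replication results was not tested. In RNA from whole cultures, fewer dividing cells and less RNA per cell cannot be told apart.

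Few differences in replication RNA between TGFb-treated and untreated myoblasts passed the test, and most of those measured lay below zero. Without scan day, 0 of 38 members rose and 0 fell in limma at an adjusted p under 0.05. Over all genes tested, 0.697% were called higher and 0.701% lower in that fit. At an unadjusted p under 0.05, 1 member was higher, Ccnd2 (cyclin D2), and 1 was lower, E2f2. With scan day as a term, 0 members rose and 3 fell, E2f2, Tk1 and Ccnd3, against 4.6% of all genes called higher and 5.54% called lower. A count of 3 in 38 is near that background. The calls changed when single arrays were left out of the fit with scan day. There 0 members were called lower without TGFb 1 or any single untreated array, only E2f2 without TGFb 2, and 3 without TGFb 3. Fewer arrays also mean less power, and the share of all genes called in these fits is not given. Dependence on a given array therefore cannot be told from lost power. With slide as a random block the same 3 fell and Ccnd2 rose, where 10.1% of all genes were called lower and 9.43% higher. The median difference of the members was -0.20 in both fits, beside 0.05 and 0.04 over all genes. Without untreated 3 it was -0.09, and -0.13 with scan day, and on the authors' deposited table it was -0.07, or -0.14 with scan day. Over the 6 arrays it was -0.13 within scan day 1 and -0.28 within scan day 2, beside 0.03 on each day over all genes.

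Differences lay below zero for 26 of 38 members in either fit. That is 68.4%, beside 47.1% of all genes without scan day and 46.2% with it. On both scan days the difference was negative for 22 members (57.9%, against 31.7% of all genes) and positive for 6. All 3 TGFb arrays lay above all 3 untreated arrays for 1 member, Ccnd2, where 8.39% of all genes did so. They lay below all 3 for 4 members, Pola2, Uhrf1, Rrm1 and E2f2, where 9.46% of all genes did. Within both scan days taken separately, the TGFb arrays lay on the same side of the untreated arrays for 24 members (63.2%), where 48.4% of all genes did so, a common outcome with 3 arrays a day. Of the 24, 20 were below (52.6%, against 23.9% of all genes) and 4 above (10.5%, against 24.5%).

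**Figure D1:**
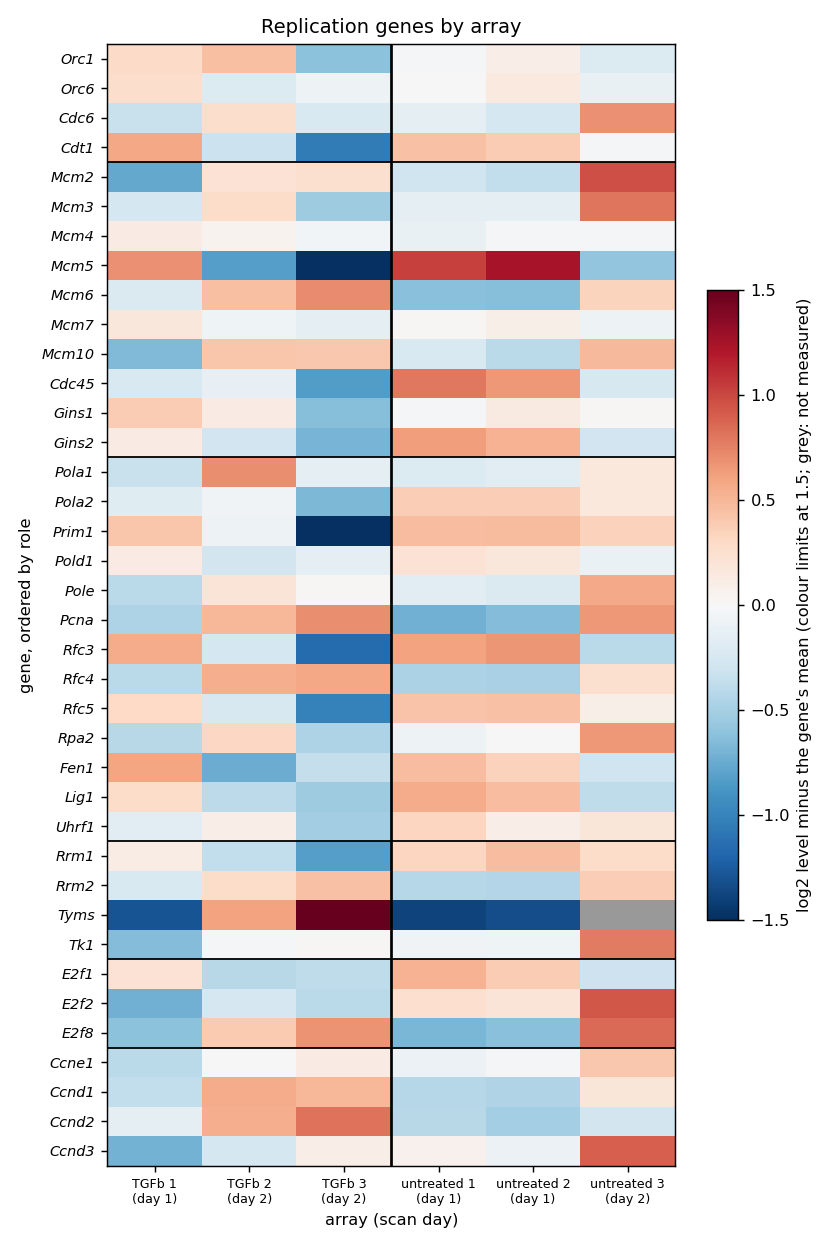
Heat map of the 38 tested members (rows, ordered by role) on the 6 arrays (columns, TGFb left of untreated), coloured by log2 level minus the gene's mean over the arrays, with colours limited at 1.5 and grey for the outlier spot of Tyms. TGFb 3 was the lowest array for 16 members and untreated 3 the highest for 11, and many rows change colour between scan days within a treatment.

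The heat map shows how the members varied by array. After subtracting each gene's mean, the median over members was -0.19, 0.03 and -0.19 on TGFb arrays 1, 2 and 3, against -0.02, 0.05 and 0.19 on untreated arrays 1, 2 and 3. The same medians over all genes ran from -0.06 to 0.09 on the TGFb arrays and from -0.07 to 0.09 on the untreated arrays. TGFb 3 was the lowest array for 16 members, and untreated 3 was the lowest for 0 and the highest for 11. More members passed between scan days than between treatments. Between the days 19 of 38 members passed the test, 13 higher on day 2 and 6 lower, where 32% and 23.6% of all genes were called higher and lower. At 50% of members against 55.5% of all genes, that share was near the background.

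**Figure D2:**
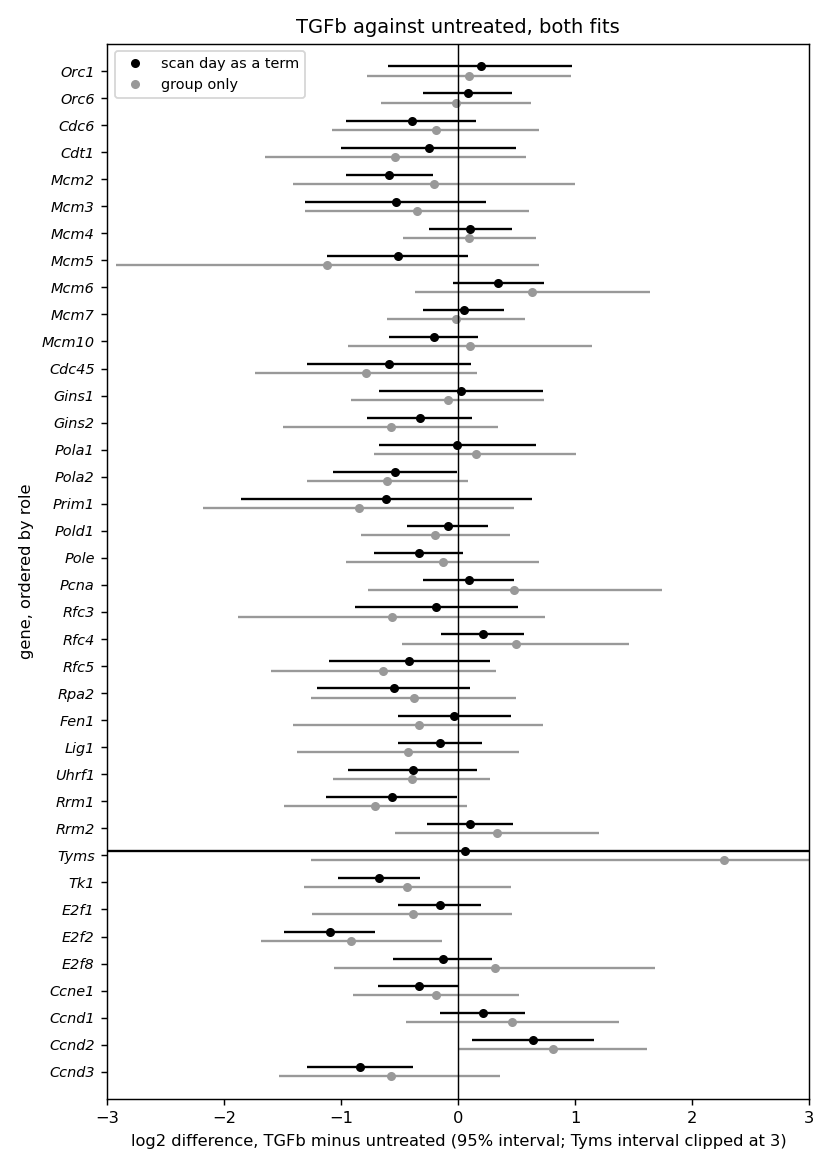
Log2 difference, TGFb minus untreated (x axis), of each tested member with its 95% interval, with scan day in the model (black) and without it (grey). The intervals of E2f2, Tk1 and Ccnd3 lie well below zero in the fit with scan day. In that fit those of Mcm2, Pola2, Rrm1 and, barely, Ccne1 also lie below zero, and that of Ccnd2 lies above. The intervals are not adjusted for the number of genes, and the interval of Tyms runs past the axis limit.

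The plot of intervals shows what the arrays could resolve. The median SE of a member's difference was 0.37 without scan day and 0.18 with it. With scan day, the 95% interval of 25 of the 38 members stayed within a 2-fold change in either direction, and that of the other 13 did not. Without scan day this held for 8. Where an interval passed that bound, a change of 2-fold was within the error.

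Origin recognition and licensing proteins mark where replication starts and load the helicase. None of the 4 members tested passed in either fit. Orc1 and Orc6, subunits of the origin recognition complex, had differences of 0.19 ± 0.31 and 0.08 ± 0.15 (SE, scan day in the model). Cdc6, an ATPase of helicase loading, was at -0.40 ± 0.22, and Cdt1, its partner in loading, at -0.25 ± 0.30. Cdt1 measured 3.57, 2.67 and 1.94 on TGFb arrays 1 to 3, against 3.43, 3.38 and 2.97 on untreated arrays. The TGFb array of day 1 thus lay above all untreated arrays and both TGFb arrays of day 2 lay below them. Within days the Cdt1 difference was 0.16 on day 1 and -0.67 on day 2.

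The MCM helicase is a ring of 6 subunits, Mcm2 to Mcm7. None of the 10 members of this group passed in either fit. Mcm2 measured 1.54, 2.52 and 2.54 on TGFb arrays 1 to 3, against 2.01, 1.94 and 3.27 on untreated arrays. The highest Mcm2 value was untreated 3 and the groups overlapped, but on each scan day the TGFb arrays lay below the untreated ones. Its difference was -0.21 ± 0.50 without scan day and -0.59 ± 0.15 with it (limma, adjusted p = 0.881 and 0.0697). With scan day, Mcm2 passed on the authors' deposited table, at -0.53 (limma, adjusted p = 0.025). It also passed with scan day when only probes above background on all 6 arrays were used, at -0.59 (adjusted p = 0.0475). Mcm5 measured 1.63, 0.11 and -0.60 on TGFb arrays, against 1.97, 2.18 and 0.35 on untreated arrays. Its 3 arrays of day 1 were its 3 highest, in both treatments, and its day difference was -1.80 (day 2 minus day 1). The TGFb difference of Mcm5 was -1.12 ± 0.74 without scan day and -0.52 ± 0.24 with it (adjusted p = 0.66 and 0.235).

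Mcm6 had a positive difference, which did not pass in either fit on the scanner values. It measured 5.03, 5.69 and 5.95 on TGFb arrays, against 4.61, 4.60 and 5.57 on untreated arrays, and TGFb was above untreated on each day. Its difference was 0.63 ± 0.41 without scan day and 0.34 ± 0.15 with it (limma, adjusted p = 0.652 and 0.228). On the authors' deposited table Mcm6 passed, at 0.45 without scan day and 0.44 with it (limma, adjusted p = 0.0311 and 0.0445). Mcm4 and Mcm7 were nearly level, at 0.10 ± 0.14 and 0.05 ± 0.14 with scan day. Mcm3 stood at -0.53 ± 0.31. Of the proteins that activate or accompany the helicase, Cdc45 had the most negative difference. It measured -2.65, -2.54 and -3.25 on TGFb arrays, against -1.63, -1.77 and -2.66 on untreated arrays, so that only TGFb 1 and TGFb 2 reached above the lowest untreated array. The Cdc45 difference was -0.79 ± 0.39 without scan day and -0.59 ± 0.28 with it (adjusted p = 0.54 and 0.248). Gins1 and Gins2, subunits of the GINS complex, were at 0.02 ± 0.28 and -0.33 ± 0.18, and Mcm10, which helps start the helicase, at -0.21 ± 0.15, all with scan day.

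**Figure D3:**
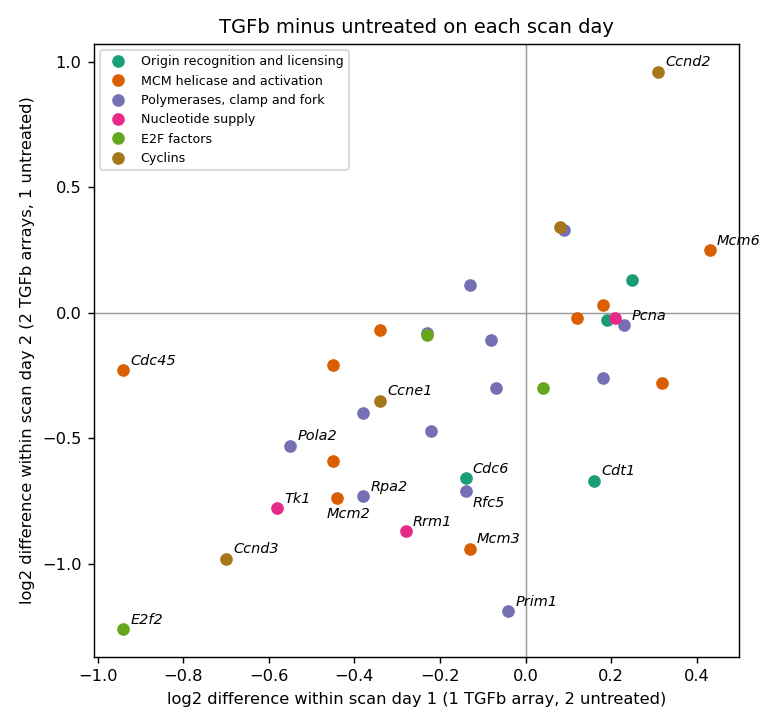
Log2 difference, TGFb minus untreated, of each member within scan day 1 (x axis) and within scan day 2 (y axis), coloured by role, for the 37 members measured on all arrays. Most points lie in the lower left quadrant, with E2f2 at its end, and Ccnd2 is the topmost point, at the right.

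The plot of both days sets the 37 members with all 6 arrays side by side, and E2f2, Ccnd3, Tk1 and Pola2 had differences under -0.5 on each day. Whether a difference changed between days was not tested for single genes.

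Polymerases, the sliding clamp and other fork proteins made up the largest role, with 13 members, none of which passed in either fit. With scan day, 11 of the 13 lay below zero, with a median of -0.19. Prim1, the catalytic subunit of primase, measured 2.04, 1.54 and 0.01 on TGFb arrays, against 2.08, 2.09 and 1.96 on untreated arrays. TGFb 3 stood apart from the other 5 arrays, and the difference was -0.85 ± 0.55 without scan day and -0.62 ± 0.49 with it (limma, adjusted p = 0.649 and 0.476). Pola2, a regulatory subunit of polymerase alpha, measured -1.81, -1.69 and -2.31 on TGFb arrays, against -1.26, -1.26 and -1.47 on untreated arrays. Here the groups did not overlap, and the difference was -0.54 ± 0.21 with scan day (adjusted p = 0.178). The catalytic subunits Pola1, Pold1 and Pole were at -0.01 ± 0.27, -0.09 ± 0.14 and -0.34 ± 0.15 with scan day.

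Pcna, the sliding clamp and a common marker of dividing cells, measured 4.60, 5.56 and 5.76 on TGFb arrays, against 4.34, 4.41 and 5.71 on untreated arrays. All 3 arrays of day 2 lay above all 3 of day 1, by 1.20 in the model. Its TGFb difference was 0.48 ± 0.51 without scan day and 0.09 ± 0.15 with it (limma, adjusted p = 0.772 and 0.764), and the 95% interval with scan day ran from -0.30 to 0.48. Replication factor C loads the clamp. Its subunit Rfc5 measured 2.18, 1.65 and 0.87 on TGFb arrays, against 2.32, 2.33 and 1.97 on untreated arrays, with TGFb 3 lowest. Rfc4 measured 2.57, 3.52 and 3.55 on TGFb arrays, against 2.49, 2.48 and 3.21 on untreated arrays, with day 2 above day 1. The differences with scan day were -0.42 ± 0.27 for Rfc5, 0.21 ± 0.14 for Rfc4 and -0.19 ± 0.28 for Rfc3.

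The proteins that protect and join the new strands did not pass either. Rpa2, a subunit of the protein that coats single-stranded DNA, was at -0.55 ± 0.26 with scan day. Fen1, the flap endonuclease that trims Okazaki fragments, was at -0.04 ± 0.19, and Lig1, the ligase that joins them, at -0.16 ± 0.14. Uhrf1, which brings the maintenance DNA methyltransferase to newly copied DNA, measured 3.15, 3.42 and 2.80 on TGFb arrays, against 3.64, 3.42 and 3.51 on untreated arrays. Before rounding, its groups did not overlap, and its difference was -0.39 ± 0.22 with scan day (limma, adjusted p = 0.316). A second, much dimmer Uhrf1 probe measured -3.82, -3.97 and -4.61 on TGFb arrays, against -2.75, -3.21 and -3.21 on untreated arrays. It was at -0.96 ± 0.26 with scan day in the fit over probes (adjusted p = 0.0871).

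Nucleotide supply held 1 of the 3 calls made with scan day. Tk1, thymidine kinase 1, salvages thymidine and peaks in S phase. It measured 2.37, 2.99 and 3.03 on TGFb arrays, against 2.96, 2.95 and 3.79 on untreated arrays. Across days the groups overlapped, while on each day the TGFb arrays were the lower ones, by 0.58 on day 1 and 0.78 on day 2. The difference was -0.44 ± 0.36 without scan day and -0.68 ± 0.14 with it, 0.62 of the untreated level (limma, adjusted p = 0.734 and 0.041). Rrm1, the large subunit of ribonucleotide reductase, measured 3.90, 3.42 and 2.96 on TGFb arrays, against 4.11, 4.25 and 4.06 on untreated arrays. All 3 TGFb arrays lay below the untreated ones, and the difference was -0.71 ± 0.32 without scan day and -0.57 ± 0.22 with it (adjusted p = 0.488 and 0.177). Rrm2, the small subunit whose level follows the cell cycle, was at 0.10 ± 0.15 with scan day.

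Tyms, thymidylate synthase, gave the widest spread. It measured -2.04, -0.14 and 2.68 on TGFb arrays, against -2.13 and -2.07 on untreated arrays 1 and 2. The spot on untreated 3 was marked as an outlier and left out, so the fit used 5 arrays. The difference was 2.27 ± 1.38 without scan day, 1.01 when TGFb 3 was also left out, and 0.06 ± 1.19 with scan day in the model (limma, adjusted p = 0.64 without scan day and 0.982 with it). The 2 high values were both from day 2, where no untreated array measured the gene.

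E2f2, an activating E2F factor, showed the clearest fall. It measured 2.73, 3.20 and 3.05 on TGFb arrays, against 3.70, 3.65 and 4.38 on untreated arrays, or 2.99 ± 0.24 against 3.91 ± 0.41 (mean ± SD, n = 3 each). The groups did not overlap, and TGFb arrays were lower by 0.94 on day 1 and 1.26 on day 2. The difference was -0.92 ± 0.32 without scan day (limma, adjusted p = 0.331) and -1.10 ± 0.15 with it (adjusted p = 0.0143), which is 0.47 of the untreated level. On the authors' deposited table, normalized in a way that no source used here states, E2f2 was at -0.97 without scan day (adjusted p = 0.00516). Between scan days 0% of genes passed on that table. Whether scan day had been corrected there is not stated, and with such a correction p-values from it could be too small. The share of all genes called between treatments on it is not given. E2f1, another activator, measured 1.41, 0.78 and 0.81 on TGFb arrays, against 1.72, 1.57 and 0.88 on untreated arrays. All 3 of its day 1 values exceeded its day 2 values, and with scan day its difference was -0.16 ± 0.14 (adjusted p = 0.515). E2f8, a repressor of E2F targets, was at -0.13 ± 0.17 with scan day, and its level was 1.33 higher on day 2.

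**Figure D4:**
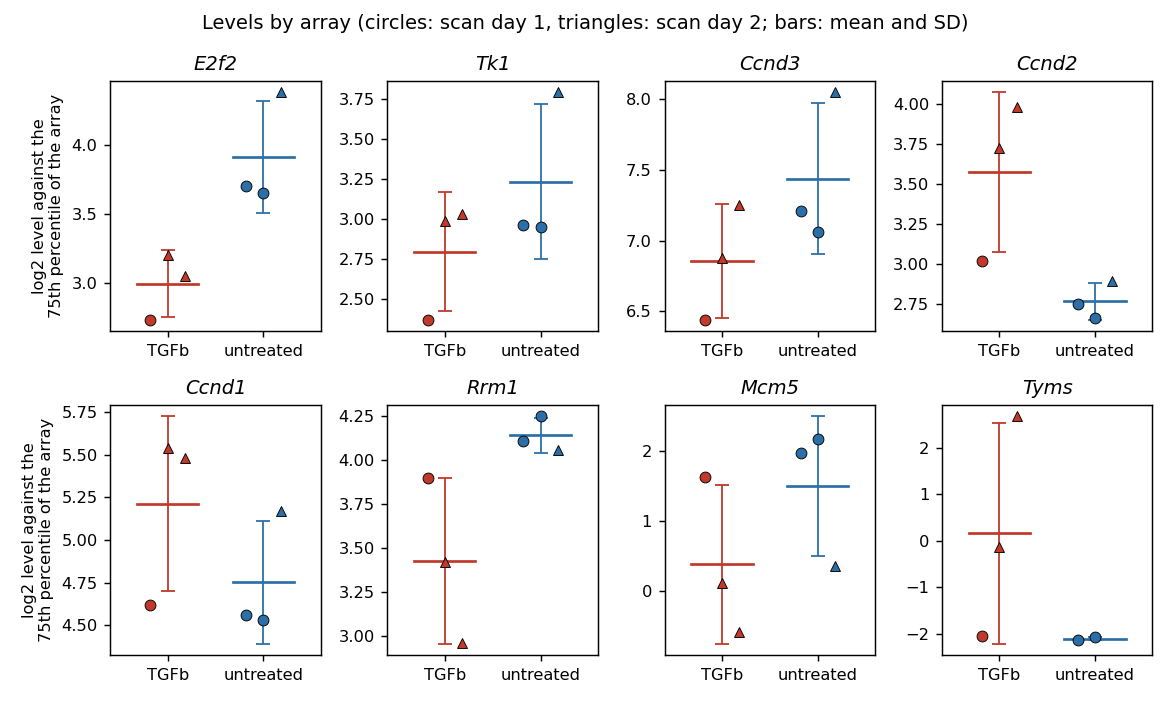
Log2 level of 8 members on each array, TGFb left of untreated, with circles for scan day 1, triangles for scan day 2, and bars for the mean and SD of each group. E2f2 and Rrm1 were lower on all 3 TGFb arrays, Ccnd2 was higher on all 3, and Tk1 and Ccnd3 separate only within a scan day.

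The D-type cyclins, which with Cdk4 and Cdk6 start the phosphorylation of the retinoblastoma protein, held 1 of the 3 calls made with scan day. Ccnd3 (cyclin D3, known to be high in differentiating muscle) measured 6.44, 6.88 and 7.25 on TGFb arrays, against 7.21, 7.06 and 8.05 on untreated arrays. TGFb 3 reached above untreated 1 and 2, while within each day the TGFb arrays were lower. The difference was -0.58 ± 0.39 without scan day and -0.84 ± 0.18 with it, 0.56 of the untreated level (limma, adjusted p = 0.66 and 0.0467). A second Ccnd3 probe gave -1.12 ± 0.26 with scan day in the fit over probes and did not pass (limma, adjusted p = 0.0642). When all probes were adjusted together in place of 1 probe a gene, the adjusted p was 0.0559 for Ccnd3, 0.0528 for Tk1 and 0.019 for E2f2, so that only E2f2 passed.

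Ccnd2 measured 3.02, 3.72 and 3.98 on TGFb arrays, against 2.75, 2.66 and 2.89 on untreated arrays. It was the only member with all TGFb arrays above all untreated ones. Its difference was 0.81 ± 0.33 without scan day (limma, adjusted p = 0.431) and 0.64 ± 0.21 with it (adjusted p = 0.122). It passed in neither of these fits, but did with slide as a random block, at 0.63 ± 0.17 (adjusted p = 0.0436). Within the shared slides Ccnd2 was at 0.36 and 0.83. Ccnd1 measured 4.62, 5.54 and 5.48 on TGFb arrays, against 4.56, 4.53 and 5.17 on untreated arrays, and was at 0.21 ± 0.14 with scan day (adjusted p = 0.415). Ccne1, the cyclin E1 gene and a classic E2F target, measured 3.10, 3.51 and 3.63 on TGFb arrays, against 3.42, 3.48 and 3.92 on untreated arrays. Its groups overlapped, and its difference was -0.34 ± 0.14 with scan day (adjusted p = 0.181). Within an array, the Ccnd2 value minus the Ccnd3 value was -3.42, -3.16 and -3.27 on TGFb arrays, against -4.46, -4.41 and -5.16 on untreated arrays. Only its change between arrays can be read, since the probes differ, and it was 1.39 higher with TGFb on average, with no overlap. The exact two-sided permutation p was 0.1, the smallest that 3 against 3 arrays allow. The pair was chosen after its values were seen, so its separation was already known and this p carries no weight as a test. The permutation also took no account of scan day.

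In all, 7 members had several tested probes, and these show how far a value depends on the probe. The 2 Mcm3 probes overlap by 43 positions and differ there at 1, A31G, counted from base 1 at the 5′ end of the brighter probe. A window of 30 bases of each probe is shown to set that position side by side, with the differing base in capitals, followed by a window of each Rfc4 probe, because the Rfc4 probes disagreed.
Mcm3 brighter probe, bases 18 to 47: aagctttctttgcAattagactagtatgta
Mcm3 dimmer probe, bases 1 to 30: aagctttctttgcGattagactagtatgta
Rfc4 brighter probe, bases 29 to 58, with the polyadenylation word AATAAA in capitals: ccagttactataAATAAAtggccagaccac
Rfc4 dimmer probe, bases 1 to 30: tgggccacctggaactggcaaaacatccac
The scanner files place the Mcm3 probes at chr1:20793136-20793195 and chr1:20793119-20793178, and the Rfc4 probes at chr16:23114024-23114083 and chr16:23120982-23121041, all on mm9. The 2 Mcm3 probes moved the same way between scan days, with 0.54 ± 0.31 and 0.95 ± 0.26 (SE, day 2 minus day 1). The Rfc4 probes moved in opposite ways, with 0.85 ± 0.15 for the brighter and -0.85 ± 0.19 for the dimmer, and their TGFb differences with scan day were 0.21 ± 0.15 and -0.20 ± 0.19 in the fit over probes. In all, 3 of the 7 members had probes of opposite day sign, Rfc4, Cdc6 and Pole. The Pole probes were at 0.63 ± 0.16 and -0.21 ± 0.39. The Cdc6 probes split by day, with 0.62 ± 0.22 for the brighter and -1.86 ± 0.23 for the dimmer, yet their TGFb differences with scan day were close, at -0.40 ± 0.22 and -0.30 ± 0.23. Over all genes with several tested probes, 3055 of 5631 (54.3%) had probes of opposite sign between days, and 907 (16.1%) had probes called in opposite directions. The cause of the opposite day shifts was not tested.

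**Figure D5:**
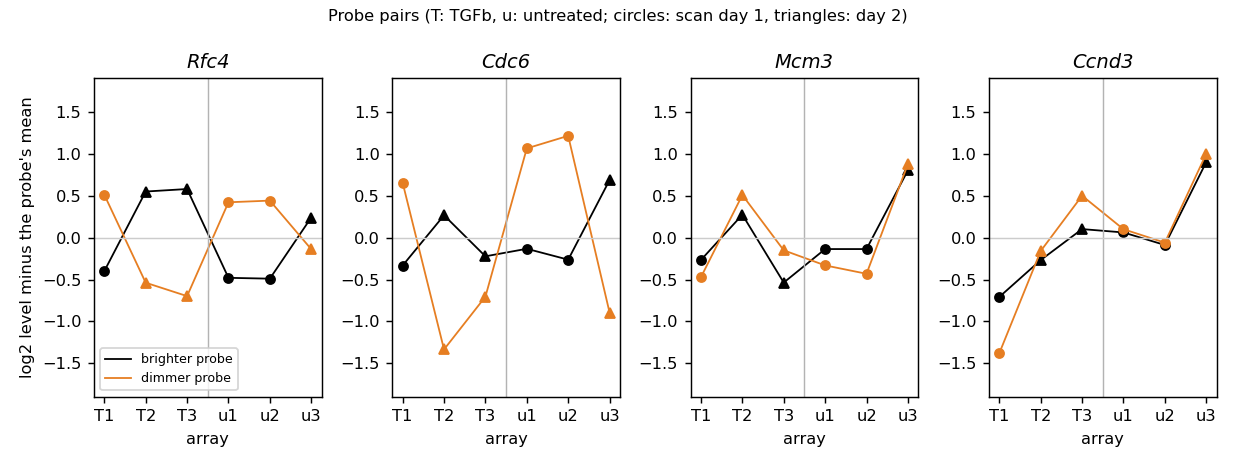
Log2 level minus the probe's mean on the 6 arrays for both tested probes of Rfc4, Cdc6, Mcm3 and Ccnd3 (T for TGFb, u for untreated, circles for scan day 1 and triangles for day 2; lines only join points of a probe). The Rfc4 and Cdc6 probes mirror each other between days, while the Mcm3 and Ccnd3 probes run together.

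The other genes of the pathway gave few calls. Of 50 other replication genes on the arrays 48 were tested, and without scan day 0 rose and 0 fell, with 4 lower and 0 higher at an unadjusted p under 0.05. With scan day 0 rose and 1 fell, Asf1b, a histone chaperone of newly copied chromatin, at -0.84 ± 0.14 (limma, adjusted p = 0.0234). In that fit 4.6% of all genes were called higher and 5.54% lower. The median of the 48 was -0.17 with scan day, and 39 of 48 lay below zero (81.2%, against 46.2% of all genes). The nearest to the threshold below were Pold4, an accessory subunit of polymerase delta, at -0.95 ± 0.21 (adjusted p = 0.0522), and Dnmt1, the maintenance DNA methyltransferase, at -0.59 ± 0.14 (0.0558). On the other side were Gmnn (geminin, which blocks Cdt1) at 0.45 ± 0.18, Mcmbp, an MCM binding protein, at 0.40 ± 0.17, and Rpa3, a subunit of the single-strand binding protein, at 0.31 ± 0.14, none past the test.

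Of 15 genes that control E2F activity, 0 rose and 0 fell without scan day. Where 4.6% of all genes were called higher and 5.54% lower with scan day, 0 of the 15 rose and 2 fell. These were Cdk2, the partner kinase of cyclin E, at -0.91 ± 0.18, and Rb1, the retinoblastoma protein gene and a brake on E2F, at -1.06 ± 0.21 (limma, adjusted p = 0.038 and 0.0398). Cdk6, a partner of D cyclins, was at 0.63 ± 0.23 and E2f7, a repressor like E2f8, at 0.34 ± 0.16, neither past the test. Among markers of proliferation, Mki67 measured 3.95, 5.08 and 5.10 on TGFb arrays, against 4.69, 4.62 and 5.88 on untreated arrays. It fell by 0.75 with scan day (adjusted p = 0.0289), as did Top2a, topoisomerase II alpha, at -0.74 ± 0.13 (adjusted p = 0.028). The mitotic genes Cdk1 and Ccnb1 were at -0.29 ± 0.35 and -0.59 ± 0.16 (adjusted p = 0.642 and 0.086). Cdkn1a, which encodes the Cdk inhibitor p21 and is known to be high in differentiating muscle, measured 5.47, 4.82 and 5.29 on TGFb arrays, against 6.32, 6.31 and 6.09 on untreated arrays. Its groups did not overlap, and it fell with scan day, at -0.94 ± 0.19 (adjusted p = 0.0383). None of these 5 genes passed without scan day.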

How the data were processed

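The authors deposited 1 scanner file per array, whose intensity values came, per the file headers, from Agilent Feature Extraction (version 10.7.3.1) with background subtracted. They also deposited a table of log2 values whose normalization no source used here states. Between scan days, 0% of genes passed the test on that table, and the members' median absolute day difference was 0.32, against 0.66 in the scanner values. Control and outlier spots (176 to 365 per array) were left out, the processed signal was taken to log2 and the array's 75th percentile subtracted. A gene was tested if its brightest probe passed the scanner's test against background on 3 or more of 6 arrays. Gene names are the array's, updated by RefSeq accession for 26300 of 55681 probes. TGFb was set against untreated in limma (version 3.58.1, R version 4.3.3), with Benjamini-Hochberg adjustment over 21960 genes and a threshold of 0.05, on group only and with scan day as a term, and the code was tested on simulated data. The members and lists were chosen with earlier results of these data known. Every member is named, with values by array for those called, the 6 highest and 6 lowest differences and a few fixed genes. Of the other pathway genes, those past the threshold without scan day and the 5 with the smallest adjusted p in each direction with scan day are named. Alternatives covered normalization, background, filter, probes, slide, replicate block and leaving out each array. Same-numbered arrays were not paired: their deviations correlated at 0.803, -0.715 and 0.692. Between 52% and 56.7% of spots per array were well above background.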

Additional observations from a re-analysis of the deposited data

How the results depend on the processing

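Without scan day, 0 of 38 members were called lower under normexp, quantile normalization, both other filters, the mean of a gene's probes and each left-out array. Members called lower were 3 with scan day as a term, 3 with slide as a random block, and 2 on the authors' deposited table. Combined with scan day, after seeing the data, they were 3 with quantile normalization, 3 with normexp, 3 with the mean of a gene's probes, 4 on the authors' deposited table, 4 with probes above background on all 6 arrays, and 1 with p adjusted over all probes. Members called higher were 1 with slide as a block (Ccnd2), and 1 on the authors' deposited table without and with scan day (Mcm6). The share of all genes called is given above for the fits on group only, with scan day and with slide. It is not given for the other settings, so their counts of members cannot be set against a background. Leaving out each array gave 0 to 0 called lower without scan day and 0 to 3 with it, with medians of -0.29 to -0.09 and -0.27 to -0.13, nearest zero without untreated 3. The median moved to -0.07 on the authors' deposited table, and the cause was not tested. Other pathway genes called were 3 with scan day, all lower, against 0 without. With scan day 5.54% of all genes were called lower. Members whose groups did not overlap numbered 5 over all arrays, and 24 within both scan days, where 48.4% of all genes also separated. The replicate number as a block called 0 higher and 0 lower, with a median of -0.20. Arrays of one scan day deviated together whatever their number, so replicate numbers were not taken as pairs. Dim probes such as Ccne2 carry no usable signal over background.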
